A study of Mus musculus with 5 samples.

Results

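Intergenic ZFP541 regions are the places where both wild-type ChIP libraries had an overlapping peak, the knockout library had none, and the summit lay outside every protein-coding gene and more than 1 kb from the nearest end of one. They numbered 337 of 5254 ZFP541 regions on chromosomes 1 to 19 (6.41%, 95% exact binomial interval 5.77 to 7.11, which covers counting error only). With replicate 1 peaks alone the share was 11.6%, and with replicate 2 peaks alone 14.6%. Of the others, 1130 had their summit inside a protein-coding gene body and 3787 within 1 kb of a coding gene end. The summit was that of the widest replicate 1 peak of a region, and genes came from a RefSeq table of the mm10 assembly. Only the summit was placed, so a region can itself reach over a coding gene end.

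Chromatin was prepared from pachytene and diplotene spermatocytes of adult C57BL/6 testis, enriched by STA-PUT (sedimentation through a gradient at unit gravity), and fixed with 1% formaldehyde. The 5 samples were 1 ZFP541 ChIP library from Zfp541-/- cells, 2 ZFP541 ChIP libraries from wild-type cells and 2 inputs from wild-type cells. The antibody was raised in rabbit against residues 1 to 300 of ZFP541. The inputs were not analysed here, the knockout allele is not described in the sources used here, and the labels leave unsaid whether each replicate is a separate animal. The lists held 256 peaks in the knockout, 8236 in wild-type replicate 1 and 10371 in wild-type replicate 2. Read depth is unknown from them, so a missing peak does not show that a site was unbound. The peak caller's −log10 p began at 4.47 in the knockout list, against 2.71 and 2.54 in the wild-type lists. A missing knockout peak therefore does not show that a weak wild-type signal depends on ZFP541. With 1 knockout library no test between genotypes was possible. Regions are not replicates, so differences between sets of regions are described and were not tested. The lists hold no expression values, so the cell type could not be checked against markers.

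ZFP541 is a zinc finger protein made in spermatocytes that acts with KCTD19 and the histone deacetylases HDAC1 and HDAC2. Most of the mouse genome lies outside protein-coding genes, and that part holds genes of long noncoding RNAs (lncRNAs), of microRNAs (miRNAs), pseudogenes and distal regulatory elements. Many miRNAs are cut from long precursor transcripts whose promoters lie kilobases before the hairpin, and many lncRNA promoters are rich in CpG, as coding promoters are.

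The sequences below belong to noncoding genes at or near intergenic regions that are described further on, chosen as examples after their values were seen. The first set holds the 300 bases around the annotated start of 5 lncRNA genes, 250 before and 50 from the start on, whose promoter window overlapped a region (RefSeq, GRCm38.p6, each 5′ to 3′ on the gene's own strand). Capitals mark the 8 short motifs searched on both strands. These were the GC box (GGGCGG), the CCAAT box (CCAAT), an ETS core (CGGAAG), a cyclic AMP element core (TGACGT), an E-box (CACGTG), the TATA box (TATAAA), an NRF1 core (TGCGCA) and a YY1 core (AAGATGG). Matches of different motifs can share letters, and a match is a description and not a binding site. In order, the windows are chr5:25529768-25530067 (plus strand), chr5:74092810-74093109 (plus), chr9:122572251-122572550 (plus), chr8:92356071-92356370 (minus) and chr14:61682324-61682623 (minus).
1700096K18Rik: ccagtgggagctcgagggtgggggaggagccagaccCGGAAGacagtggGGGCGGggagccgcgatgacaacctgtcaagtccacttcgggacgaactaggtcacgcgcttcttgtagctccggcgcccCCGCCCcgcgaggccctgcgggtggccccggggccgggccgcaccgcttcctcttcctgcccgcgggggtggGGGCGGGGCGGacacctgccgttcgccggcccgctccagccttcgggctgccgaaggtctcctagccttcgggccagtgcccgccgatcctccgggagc
Dancr: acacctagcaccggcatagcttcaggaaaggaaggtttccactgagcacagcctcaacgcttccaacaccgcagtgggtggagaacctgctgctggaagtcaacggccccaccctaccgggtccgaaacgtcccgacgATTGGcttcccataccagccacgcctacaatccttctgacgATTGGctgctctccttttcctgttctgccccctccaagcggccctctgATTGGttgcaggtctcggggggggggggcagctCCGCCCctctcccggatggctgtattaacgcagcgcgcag
9530059O14Rik: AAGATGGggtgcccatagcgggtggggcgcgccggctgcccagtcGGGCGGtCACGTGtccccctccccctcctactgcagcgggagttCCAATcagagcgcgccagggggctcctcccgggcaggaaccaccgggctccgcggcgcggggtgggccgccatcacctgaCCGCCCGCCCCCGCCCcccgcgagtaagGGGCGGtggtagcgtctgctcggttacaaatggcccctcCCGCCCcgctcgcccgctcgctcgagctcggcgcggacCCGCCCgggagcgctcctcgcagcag
Crnde: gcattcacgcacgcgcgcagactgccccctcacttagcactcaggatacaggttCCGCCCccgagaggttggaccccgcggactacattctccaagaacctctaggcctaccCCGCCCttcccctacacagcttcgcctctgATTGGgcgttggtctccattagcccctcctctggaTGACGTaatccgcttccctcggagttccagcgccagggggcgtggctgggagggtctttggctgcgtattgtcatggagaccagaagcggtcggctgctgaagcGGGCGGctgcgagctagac
Dleu2: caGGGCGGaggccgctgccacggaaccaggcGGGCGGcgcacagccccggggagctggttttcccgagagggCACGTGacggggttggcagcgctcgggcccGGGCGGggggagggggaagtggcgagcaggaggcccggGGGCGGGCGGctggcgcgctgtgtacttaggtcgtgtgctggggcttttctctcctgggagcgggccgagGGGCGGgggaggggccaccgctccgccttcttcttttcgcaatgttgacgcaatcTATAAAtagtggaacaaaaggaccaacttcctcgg

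The second set holds mature miRNAs whose hairpin lay within 10 kb of a summit, with the seed (bases 2 to 8), which sets target pairing, in capitals. They are grouped by locus, and those that share a seed stand next to each other: 3 let-7 miRNAs from 2 loci, then the miR-17 cluster with its 4 seeds, then miR-9, miR-181d and miR-203.
mmu-let-7i-5p: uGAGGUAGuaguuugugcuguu
mmu-let-7a-5p: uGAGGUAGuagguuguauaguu
mmu-let-7f-5p: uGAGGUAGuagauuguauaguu
mmu-miR-17-5p: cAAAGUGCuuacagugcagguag
mmu-miR-20a-5p: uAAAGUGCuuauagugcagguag
mmu-miR-18a-5p: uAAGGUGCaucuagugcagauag
mmu-miR-19a-3p: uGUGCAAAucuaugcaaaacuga
mmu-miR-19b-3p: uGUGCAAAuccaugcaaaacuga
mmu-miR-92a-3p: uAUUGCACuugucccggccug
mmu-miR-9-5p: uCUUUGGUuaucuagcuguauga
mmu-miR-181d-5p: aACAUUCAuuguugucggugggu
mmu-miR-203-3p: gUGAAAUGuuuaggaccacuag

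The strongest intergenic regions had folds close to those of the strongest regions at coding genes, but most were weaker. Values are the highest fold enrichment among a region's peaks, as the authors' peak caller gave it, for replicate 1 and then replicate 2. The first by mean percentile rank over the replicates had folds of 22.1 and 23.5 and lay 21436 bp from Tcf12, an E protein gene (chromosome 9, 72131384 to 72134816). The second had 23.0 and 20.3 (chromosome 4, 146237567 to 146241715) and held the start of the lncRNA gene Gm13165, 339 bp upstream of the summit. The highest folds in gene bodies were 24.5 and 25.5, and those at gene ends 23.2 and 26.3.

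Over all 337 regions the median fold was 4.29 in replicate 1 (quartiles 3.49 and 5.95) and 4.36 in replicate 2 (3.61 and 6.71). Regions inside gene bodies had medians of 5.36 and 5.71, and regions at gene ends 5.66 and 6.14. Intergenic regions were also narrower, with a median width of 790 bp, against 1094 bp in gene bodies and 1090 bp at gene ends. Of the intergenic regions, 34 (10.1%) had a fold above the upper quartile of all regions in both replicates, against 17.7% of all regions. A −log10 q of at least 10 in both replicates was reached by 65 (19.3%), against 30.1% of all regions, and a q-value under 0.05 in both by 276 (81.9%), against 87.5%. The order of the medians, with intergenic regions lowest, was the same in both libraries.

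**Figure D1:**
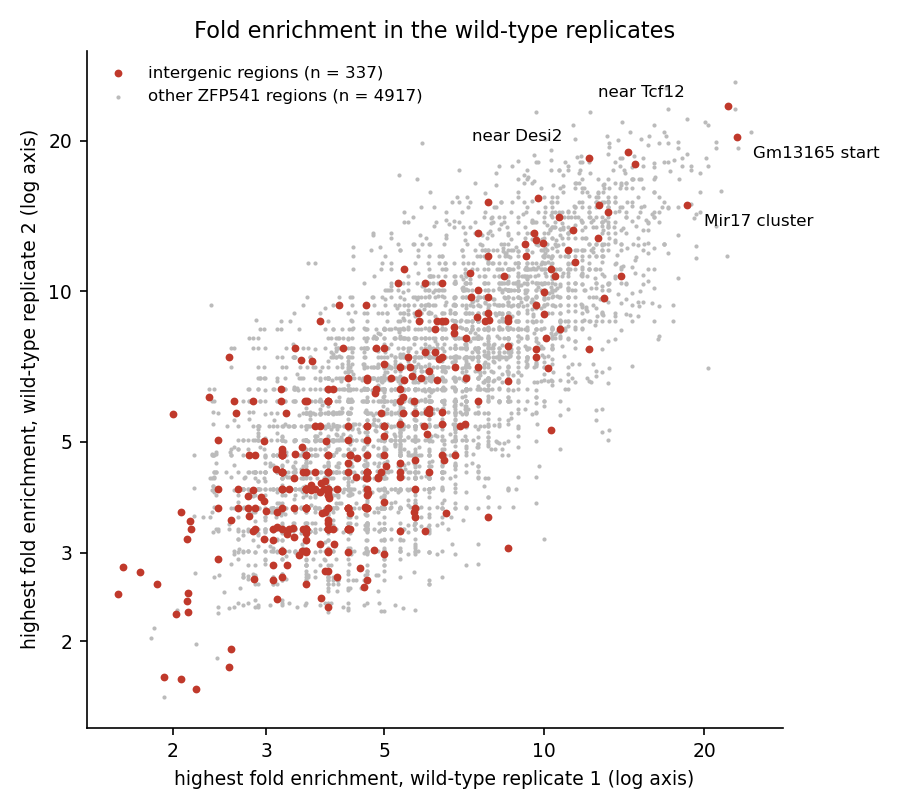
Highest fold enrichment of each ZFP541 region in wild-type replicate 1 (x, log axis) and replicate 2 (y, log axis), with 337 intergenic regions in red and the other regions in grey. Intergenic regions span nearly the whole range, from 1.58 to 23.0 in replicate 1, with most at the low end.

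**Figure D2:**
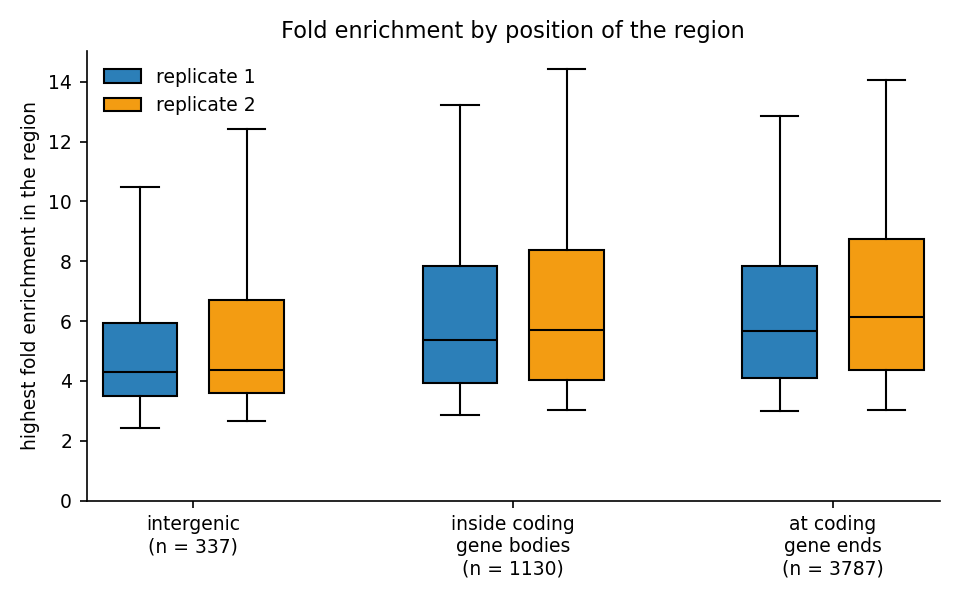
Highest fold enrichment per region for 337 intergenic regions, 1130 regions inside coding gene bodies and 3787 at coding gene ends, in replicate 1 (blue) and replicate 2 (orange). Boxes show quartiles and median, whiskers the 5th and 95th percentiles; intergenic medians of 4.29 and 4.36 are the lowest in each library.

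Folds of the replicates followed each other across the 337 regions (Pearson r of log2 fold 0.77, Spearman rho 0.67; the points share the libraries and the peak caller's background). The median distance between the strongest summits of the replicates was 74 bp, against 101 bp in gene bodies and 87 bp at gene ends. Intergenic regions were narrower, and this distance was not scaled to width. In 303 regions (89.9%) each replicate had a single peak, close to the 86.6% of all regions (83.2% in gene bodies and 87.3% at gene ends). Counted peak by peak, a smaller share outside coding genes had a partner in the other library. Of 929 intergenic replicate 1 peaks without a knockout peak, 388 (41.8%, 38.6 to 45.0) overlapped a replicate 2 peak, against 63.0% in gene bodies and 84.2% at gene ends. Of 1469 such replicate 2 peaks, 356 (24.2%, 22.1 to 26.5) overlapped a replicate 1 peak, against 39.7% and 70.0%. In the highest quartile of fold the share for intergenic peaks was 98.5% (64 of 65) in replicate 1 and 97.0% (98 of 101) in replicate 2, against 99.7% and 98.9% at gene ends. In gene bodies it was 100% and 99.8%. In the lowest quartile it was 25.8% and 7.43%, against 38.6% and 11.1% in gene bodies and 60.7% and 29.9% at gene ends. Shares were thus close over all 3 positions among strong peaks, and among weak peaks those outside coding genes were nearer to gene bodies than to gene ends.

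Intergenic positions held most regions that had a peak in the knockout. Before removal, 92 of 429 intergenic regions (21.4%, 17.7 to 25.6) touched a knockout peak, against 2.38% of all 5382 regions. The count was 32 of 1162 (2.75%) in gene bodies and 4 of 3791 (0.106%) at gene ends. Of the 92, 56 (60.9%) were at a chromosome start, meaning the first 500 kb from the first base with data, and 33 were on chromosome 9. Without chromosome starts the intergenic share was 10.1%. With peaks of replicate 1 alone it was 10.2%, and with those of replicate 2 alone 6.13%. The 92 removed regions had a median fold of 3.15 in the knockout, against 3.04 and 2.74 in the wild-type replicates. The highest, 17126 bp from Mrgprd, had 9.68 in the knockout, against 5.61 and 4.11 in the wild-type replicates (chromosome 7, 145340943 to 145341433). A site 8662 bp from Gm45871 had 8.24 in the knockout, against 4.36 and 4.26, and one 124292 bp from Fgf14 had 8.15, against 4.19 and 4.17. The next, 102964 bp from Csf2ra, had 7.70 in the knockout, against 4.62 and 3.61, and the last of the 5 highest, 7591 bp from Tmem196, had 7.42, against 3.81 and 3.94. These 5 sites were chosen by their fold in the knockout library. Each had a higher fold there than in either wild-type library, each fold being relative to its own library's background. Some other removed regions had a lower fold in the knockout than in both wild-type libraries. The removed regions are not among the 337.

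**Figure D3:**
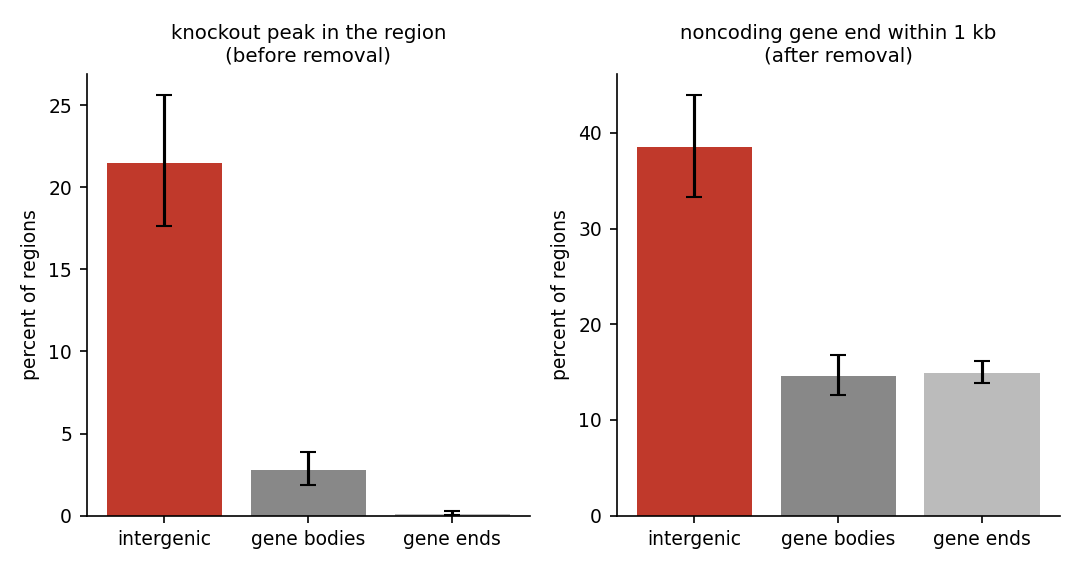
Left, percent of regions with a knockout peak before such regions were removed; right, percent of the remaining regions with a noncoding gene end within 1 kb of the summit. Bars are intergenic regions, regions in coding gene bodies and regions at coding gene ends, with 95% exact binomial intervals; intergenic regions have the highest share in both, 21.4% and 38.6%.

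Among the 337, 20 still lay within 10 kb of a knockout peak (5.93%, against 0.476% of all regions). At a chromosome start lay 18 (5.34%, against 0.723% of all regions). Those 20 had median folds of 2.604 and 3.09, and those 18 had 3.83 and 3.47. The 311 regions in neither set had medians of 4.29 and 4.70. The part that the signal seen in the knockout plays in the weak regions was not tested.

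Most intergenic regions were not far from a coding gene. The median distance from the summit to the nearest coding gene end was 9939 bp and the longest 320279 bp. Between 1 and 5 kb lay 107 regions, between 5 and 20 kb 110, between 20 and 100 kb 100, and beyond 100 kb 20. Median folds in replicate 1 were 3.93, 4.32, 4.40 and 4.27 from the nearest to the farthest bin, and 4.36, 4.67, 4.36 and 4.22 in replicate 2, so fold did not follow distance in a common order. Just over the limit of 1 kb were regions 1010 bp from 9030025P20Rik (folds 5.03 and 4.48), 1024 bp from Pcbp1 (3.58 and 6.04) and 1039 bp from Egr4 (3.57 and 3.69). Just under it, and so left out, were regions 971 bp from Arrb1 (3.21 and 4.36), 972 bp from Zeb1 (3.21 and 3.36) and 989 bp from Zswim6 (3.68 and 5.71). The 5 farthest regions were 262835 to 320279 bp from a coding gene. They lay on chromosomes 3, 6, 16 and 18 and had folds of 2.98 to 4.81 in replicate 1 and 3.13 to 6.26 in replicate 2. Those on chromosomes 6 and 16 were at a chromosome start, 3269 to 34263 bp from a knockout peak. Those on chromosomes 3 and 18 were not, and lay 2384477 and 21909904 bp from a knockout peak.

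**Figure D4:**
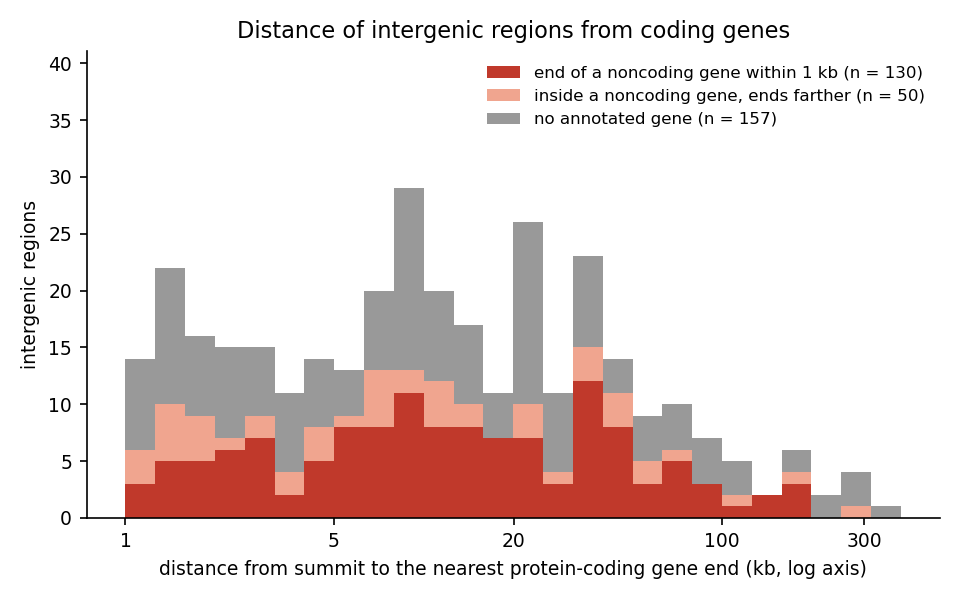
Number of intergenic regions (y) by distance from summit to the nearest protein-coding gene end in kb (x, log axis), stacked by noncoding annotation. Of the 337, 130 have a noncoding gene end within 1 kb, 50 lie inside a noncoding gene farther from its ends, and 157 have no annotated gene at the summit.

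Ends of noncoding genes were frequent at intergenic regions. The summit was within 1 kb of a noncoding gene end in 130 of 337 (38.6%, 33.4 to 44.0), against 16.4% of all regions and 14.6% of those in gene bodies. This share depended on requiring both replicates: it was 23.5% with replicate 1 peaks alone and 17.97% with replicate 2 peaks alone. The shares of all regions and of those in gene bodies were not computed for single replicates. In 76 of the 130 the nearest such gene was an lncRNA gene, in 42 a pseudogene (12 of them transcribed), in 5 an miRNA gene, in 3 an snRNA gene, in 2 a tRNA gene, in 1 a miscellaneous RNA and in 1 an rRNA gene. Pseudogene ends were near 12.5% of intergenic regions, against 0.619% in gene bodies and 0.581% at gene ends. Of the 42 regions at a pseudogene end, 11 lay in a single stretch of chromosome 4 described below. The rule places the 3 sets at different distances from coding genes, and no share was measured for intergenic sequence without a region. What these contrasts owe to the position of noncoding annotation was therefore not tested. The 130 regions had median folds of 4.64 and 5.11, and the 157 with no annotated gene had 3.93 and 4.23. A biotype here is that of the table: Rnf227 and Trmt61b are listed in it as lncRNA genes.

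Some intergenic regions overlapped annotated lncRNA starts. Promoter windows of 18 chromosomes were used, on which 48 of 326 intergenic regions (14.7%, 11.1 to 19.04) overlapped the promoter window of an lncRNA, against 9.12% of regions in gene bodies and 9.91% at gene ends. These 48 regions covered windows of 50 lncRNA genes. The summit was within 250 bp of the start in 38 of the 50 and within 500 bp in 45, with a median distance of 104 bp; 31 summits were downstream of the start and 19 upstream. Overlap with the window chose these genes, so it limits how far from the start a summit can lie.

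**Figure D5:**
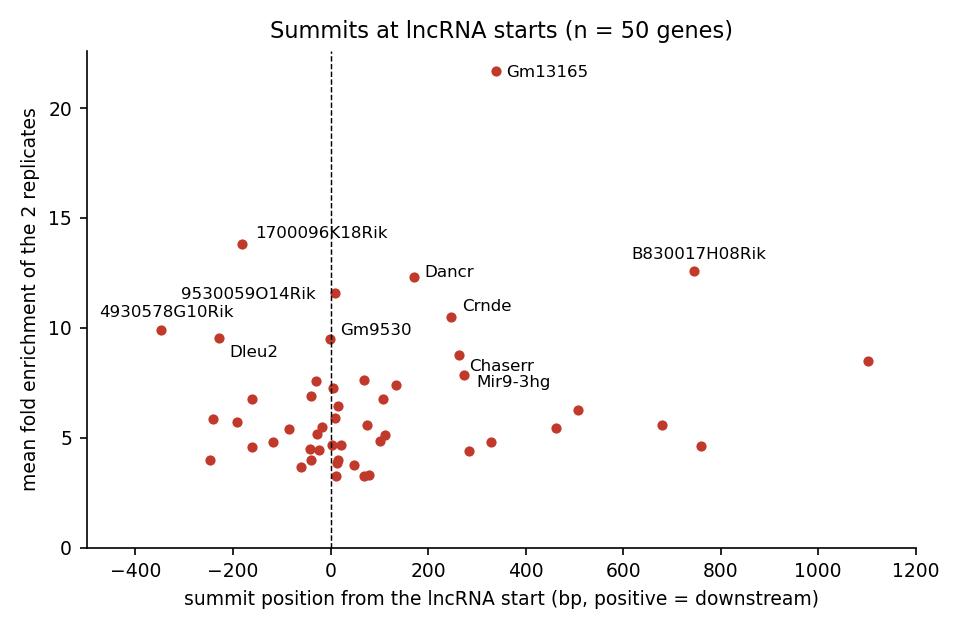
Position of the summit relative to the annotated start of 50 lncRNA genes whose promoter window an intergenic region overlapped (x, bp, positive downstream), and mean fold enrichment of the 2 replicates (y). Most points gather around the dashed line at the start, 38 within 250 bp, and the highest is Gm13165.

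Among lncRNA genes, 1700096K18Rik had a summit 181 bp upstream of its start with folds of 13.2 and 14.4 (chromosome 5, 25529455 to 25530642). Dancr, a widely expressed lncRNA gene, had its summit 172 bp downstream of the start with 13.9 and 10.7 (chromosome 5, 74092907 to 74094114). At 9530059O14Rik the summit was 9 bp from the start, with 11.1 and 12.1 (chromosome 9, 122572094 to 122573402), and the nearest coding gene, Topaz1, was 174689 bp away. All of these sites were strong in both libraries.

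B830017H08Rik had a region with folds of 9.75 and 15.4, whose summit was 746 bp downstream of the start. Crnde, transcribed away from the homeobox gene Irx5, had 9.25 and 11.7 with the summit 248 bp downstream. Dleu2, the host of Mir15a and Mir16-1, had 9.64 and 9.40 with the summit 228 bp upstream. Chaserr, an lncRNA gene beside the chromatin remodeller gene Chd2 that restrains its expression, had 7.50 and 10.1, 263 bp downstream. Lower folds were found at the starts of the snoRNA host genes Snhg8 (3.49 and 7.28) and Snhg5 (4.88 and 4.26), and at Sox1ot (5.79 and 9.06), which overlaps the Sox1 locus. The region at Rnf227, 89 bp from one end of the gene, had 14.8 and 17.9 (chromosome 11, 69339180 to 69341961) and lay 2566 bp from the chromatin remodeller gene Chd3. It overlapped none of the lncRNA promoter windows used here. At Gm9530 the summit was 1 bp from the start, with 10.0 and 9.01. Among the 10 best-ranked regions, the one 23699 bp from Desi2 had 12.1 and 18.5 with no noncoding gene end within 1 kb. Strong and weak regions alike were therefore found at annotated lncRNA starts.

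The lncRNA windows touched by intergenic regions were rich in GC and CpG. Median GC content over the 50 lncRNA windows was 65.2%, against 48.7% over the windows of all 9291 lncRNA genes and 70.3% over 366 lncRNA genes whose window was covered by a region at a coding gene end. The CpG ratio, observed over expected from base composition, had a median of 0.816, against 0.249 in all lncRNA windows and 0.919 in the 366. Of the motifs searched, the GC box was in 35 of 50 windows (70%), against 16.8% of all and 76.8% of the 366. In the same order, the ETS core was in 15 (30%, against 9.19% and 23.8%). The E-box core was in 10 (20%, against 5.94% and 9.84%) and the NRF1 core in 6 (12%, against 4.38% and 13.1%). The CCAAT box was in 18 (36%, against 35.8% and 30.1%) and the TATA box in 6 (12%, against 15.4% and 3.55%). The YY1 core was in 5 (10%, against 6.67% and 6.28%) and the cyclic AMP element core in 3 (6%, against 5.62% and 13.1%). Single windows differed. That of Dancr held 3 CCAAT boxes and 1 GC box, that of 9530059O14Rik 7 GC boxes, and that of Dleu2 6 GC boxes, an E-box and a TATA box.

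MiRNA genes lay near some intergenic regions, strong and weak. A miRNA gene was within 10 kb of the summit of 16 intergenic regions (4.75%, 2.74 to 7.60), against 2.99% of all regions, and these 16 had folds of 3.57 to 18.6 (median 6.61) in replicate 1 and 3.62 to 14.9 (median 6.63) in replicate 2. The interval holds the share of all regions, so this count does not set the intergenic regions apart. The RefSeq sequence table gave hairpins for 13 of the 16 regions, with 20 hairpins and 35 mature miRNAs. In 11 of the 13 the summit was upstream of the nearest hairpin on its own strand. The side was recorded for intergenic regions only, so no share over all regions stands beside this count. These loci were singled out after their values were seen.

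The region before the miR-17 cluster, which encodes miR-17, miR-18a, miR-19a, miR-20a, miR-19b and miR-92a on 1 precursor, had folds of 18.6 and 14.9 (chromosome 14, 115039727 to 115042846). Its summit was 2239 bp upstream of the Mir17 hairpin. As printed above, miR-17-5p and miR-20a-5p share 1 seed and miR-19a-3p and miR-19b-3p another. The region upstream of Mir181c and Mir181d had 11.3 and 13.2 (chromosome 8, 84182459 to 84185375), with its summit 4949 bp from Mir181c, 5123 bp from Mir181d and 7358 bp from Nanos3, a germ cell gene for an RNA-binding protein. These regions were the fifth and the tenth by rank among the 337.

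The 2 let-7 loci had regions of similar strength. At Mirlet7i the summit was 39 bp upstream of the hairpin, with folds of 7.86 and 9.73 (chromosome 10, 122985256 to 122987115). At the locus of Mirlet7a-1 and Mirlet7f-1 it was 8159 bp upstream of Mirlet7a-1, with 7.89 and 8.75 (chromosome 13, 48545461 to 48547160). The 3 mature miRNAs of these loci have the same seed.

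Mir9-2 had regions on either side, 7615 bp upstream with 8.57 and 6.62 and 6351 bp downstream with 7.86 and 9.06. Mir9-3 had a summit 195 bp upstream of the hairpin (6.79 and 4.70). Another region (5.31 and 10.4) lay at an annotated start of the lncRNA gene Mir9-3hg, with its summit 10355 bp from the Mir9-3 hairpin. That start is downstream of the hairpin on the same strand, so a transcript from it would not hold the hairpin. A region 914 bp from Mir124a-3 had folds of 10.3 and 11.1, and one 3559 bp from Mir124a-1 had 3.87 and 3.62. Mir203, known in mouse for its part in skin, had a summit 168 bp upstream with 6.07 and 5.83. At these loci neither replicate was the higher one throughout.

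Zinc finger genes were near intergenic regions mainly in a single stretch of chromosome 4. The nearest coding gene was a Zfp, Zscan or Zkscan gene at 22 of 337 regions (6.53%), against 2.34% of all regions; the symbols matched 1.87% of coding genes. Of the 22, 15 were on chromosome 4 and 9 had a pseudogene end within 1 kb. In a stretch of chromosome 4 (145464094 to 147739168) chosen after its values were seen, 16 of 18 ZFP541 regions were intergenic and 11 of the 16 were at a pseudogene end. It held 14 of the 22. Outside it such a gene was nearest to 8 of 321 intergenic regions (2.49%), against 2.04% of all regions there. The strongest were the region of Gm13165 described above, also at the end of the pseudogene Gm13169 and 40908 bp from Zfp600, and the one at Gm13142, 22826 bp from Zfp978, with folds of 14.4 and 19.02 (chromosome 4, 147100467 to 147104191). At Gm13244, 40720 bp from Zfp980, they were 12.7 and 14.9 (chromosome 4, 145743617 to 145747357). The 16 had median folds of 4.16 and 4.67, close to those of all intergenic regions. Outside this interval, a region 42304 bp from Zfp644 had 12.6 and 12.8 (chromosome 5, 106573762 to 106575539). Genes and pseudogenes of such clusters can be near-identical copies, and how reads with several matches were treated is not given in the sources used here.

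Genes of several families with developmental transcription factors, taken by symbol (among them Hox, Fox, Sox, Pax, Pou, Nkx, Lhx, Tbx, Gata, Irx, Tcf, Id, Meis and Klf), were the nearest coding genes of 20 intergenic regions (5.93%), against 1.79% of all regions. The symbols matched 1.01% of coding genes. Such genes of other families were not counted, among them Otx1 (10.5 and 10.7) and Tbr1 (9.21 and 12.4), which were singled out after their values were seen. Within the list, after Tcf12, the strongest were near Irx5 (9.25 and 11.7, the Crnde region), 1493 bp from Foxo3, a forkhead gene (7.73 and 8.73), and 9765 bp from Foxd1 (8.57 and 7.77). Others were near Sox1, Sox4, Id2, Gata2, Pax2 and Sox9. Sox1 had 3 regions, at 3405, 9614 and 11351 bp. Over the 20 regions the median folds were 4.63 and 4.36, close to those of all intergenic regions.

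Of 83 listed genes of meiosis and male germ cells 80 were in the table. They were nearest to 1 intergenic region, that of Nanos3, which is 0.297% of the 337, against 27 (0.514%) of all regions and 0.389% of coding genes. A count this small does not set the intergenic regions apart. Noncoding genes with RIKEN clone names from adult testis libraries had an end within 1 kb of 8 intergenic regions (2.37%), against 1.64% of all regions and 3.46% of noncoding genes. The strongest of these were 1700096K18Rik and 4930578G10Rik (12.1 and 7.68). These shares were not scaled to the share of regions with any noncoding gene end, 38.6% of intergenic and 16.4% of all regions. The count therefore does not set the intergenic regions apart. Chemoreceptor genes were nearest to 8 regions (2.37%), against 0.171% of all regions and 7.14% of coding genes. Of these 8, 7 were at a chromosome start and 5 within 10 kb of a knockout peak, and the part of these positions in the count was not tested. The 8 had median folds of 3.39 and 3.62, and 4 of them were near Olfr161 on chromosome 16, at 240546 to 320279 bp.

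Intergenic regions were partly clustered. When summits within 50 kb of each other were joined, 243 of the 337 stood alone and 48 formed 24 pairs. The remaining 46 lay in 10 clusters of 3 or more. The largest cluster held 15 regions within 38.6 kb of chromosome 6 (47739673 to 47778251), near the coding genes Gm40363 and Pdia4 and the Y RNA gene Rny3. Its folds were low, at 1.58 to 3.29 (median 2.22) in replicate 1 and 1.60 to 4.42 (median 2.49) in replicate 2, and the nearest knockout peak was 2557 bp away. A cluster of 4 near Olfr161 (3.72 and 3.94 in the median) and a cluster of 3 near Sfi1 (2.13 and 2.81) on chromosome 11 were 664 bp and 238 bp from a knockout peak. The other clusters were 870869 bp or more from any. Those of 4 were near Zfp600 (3.95 and 4.46 in the median), Bbc3 (4.36 and 4.38) and 1700001O22Rik (4.60 and 5.39). Those of 3 were near Sox1 (4.29 and 3.69), Zfp978 (3.45 and 3.61), Cxxc5 and Psd2 (3.57 and 3.36) and BC107364 (3.38 and 3.69). By chromosome, intergenic regions made up between 3.497% of regions (15 of 429, chromosome 2) and 11.98% (32 of 267, chromosome 6, which holds the cluster of 15).

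Wide regions were few outside coding genes. A width of at least 2 kb was found in 24 intergenic regions (7.12%, 4.62 to 10.4), against 17.2% in gene bodies and 14.4% at gene ends. The widest, 4230 bp, was the region with its summit 1493 bp from the end of Foxo3, followed by those at Gm13169, Gm13244, Gm13142 and Crnde. Of these 5, 3 belonged to the zinc finger interval of chromosome 4. The Foxo3 region and the one near Tbr1 each span the coding gene end nearest to their summit. How many intergenic regions do so was not counted.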

How the data were processed

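ChIP-seq peak lists of 3 libraries were analysed: 1 of Zfp541-/- and 2 of wild-type spermatocytes. Per the submitters' processing notes, the build was mm10 and the tools were MACS2 2.2.6, Bowtie2 2.3.5, cutadapt 2.6, Picard, deepTools 3.5.0 and SAMtools 1.10. The sources used here do not give settings, peak threshold or control. Each deposited list holds the peaks of 1 library, so peaks were called replicate by replicate. The deposited values of a peak are its fold (the ratio of signal to background in the caller's model), −log10 p, −log10 q, a score and a summit offset. These are the authors' own values and were used to describe and rank peaks. In the deposited lists, 11.3% of knockout, 19.2% of replicate 1 and 22.6% of replicate 2 peaks have a q-value above 0.05. The knockout list began at a −log10 p of 4.47, against 2.71 and 2.54 in the wild-type lists of the authors.

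Wild-type peaks sharing at least 1 bp were joined, regions touching a knockout peak were removed, and summits were placed relative to 20560 coding and 26154 noncoding genes of the RefSeq table (GRCm38.p6). Left out were 328 gene entries before 3 Mb, which carry scaffold coordinates. A region's fold is the highest among its peaks in a library. Regions named are the 10 best by mean percentile rank, the 5 widest, the 5 farthest from coding genes, the 8 best at noncoding ends, the 3 on either side of the distance limit, the 5 highest removed ones, clusters of 3 or more, and up to 4 of each gene list; others were chosen after their values were seen. Members and lists were chosen with earlier results of these data known. Joining and classing were tested on simulated data. Shares have 95% Clopper-Pearson intervals. Alternatives covered peak threshold, overlap, summit, distances, replicates, knockout peaks, gene entries and chromosome starts. Tables were made with pandas 2.3.3 and numpy 2.4.6, intervals with scipy 1.17.1 and plots with matplotlib 3.10.9, all under Python 3.11.15.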

Additional observations from a re-analysis of the deposited data

How the results depend on the processing

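Stricter peak lists gave fewer and stronger intergenic regions. With peaks kept only from a −log10 q of 5 or 10 there were 127 and 69 regions (4.57% and 4.35% of all), with median folds of 6.43 and 8.57 in replicate 1 and 7.38 and 9.01 in replicate 2, and a knockout peak touched 35.5% and 48.5%. A reciprocal overlap of 50% left 213 regions with median folds of 4.64 and 4.83 and a knockout share of 28.5%. Single replicates gave 929 to 1469 regions (11.6% to 14.6%), a noncoding end at 17.97% to 23.5%, median folds of 3.57 (replicate 1) and 3.36 (replicate 2), and a knockout share of 6.13% to 10.2%. With knockout peaks kept, the share of all regions was 7.97%, noncoding ends were at 30.8% and median folds were 3.93 and 4.03. A limit of 500 bp from coding ends gave 7.61% and a median of 4.48 in replicate 2; a limit of 5 kb gave 4.38%, a median of 4.47 in replicate 2 and a knockout share of 27.4%. Noncoding ends were at 31.5% within 500 bp, 49.3% within 2 kb and 23.7% for lncRNA genes alone. Without chromosome starts the median of replicate 2 was 4.60 and the knockout share 10.1%. Without the cluster of 15 regions, an alternative chosen after seeing the data, the median of replicate 2 was 4.63. Of 79 alternative values, 40 stayed within the interval, the replicate SD or 1.5 times the value reported. The choice of summit and the gene entries before 3 Mb moved none past that. Apart from settings that change which regions or genes are counted, the cause was not tested. No paired analysis was possible because the results come from no test and the knockout has 1 library. Depth is unknown, so weak or missing peaks cannot be told from shallow sequencing.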
